A study of Cricetulus griseus and Cricetulus griseus
Mus musculus and Mus musculus with 202 samples.

Results

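The genes described here are olfactory receptor genes that carry the numbers 540 to 720 in their mouse names, the range given to a large receptor cluster on mouse chromosome 7. They were taken by name, as every probe annotated with a single symbol made of Olfr and a number in that range. Earlier results of these data were known when the range was chosen. The rule found 117 probes for 112 genes, of 16504 genes with a single-symbol probe in all. Another 613 genes on the array were single-symbol olfactory receptors with other numbers. Of the 112 receptors, 108 had 1 probe, 3 had 2 probes and 1 had 3, and probes of a gene were averaged. Gene positions were not analysed here, so the place on chromosome 7 rests on the numbering.

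Odorant receptors are G protein-coupled receptors of olfactory sensory neurons, the cells of the nasal epithelium that detect smells. Each such neuron is known to express a single receptor gene, usually from 1 of its alleles, and to signal through the olfactory G protein Gnal, the adenylyl cyclase Adcy3 and a cyclic nucleotide-gated channel. The cluster on mouse chromosome 7 is known for its class I receptors, an old branch related to the receptors of fish, and it surrounds the beta-globin genes. A few olfactory receptors are also known from other tissues. In the mouse, Olfr544 binds azelaic acid and Olfr558 responds to short-chain fatty acids. For most of the receptors named below no ligand is stated here.

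RNA of 99 lines of the T31 radiation hybrid panel was compared with RNA of A23, the hamster line that received the mouse DNA, on 2 arrays per line. Radiation hybrids are made by irradiating donor cells and fusing them to a recipient, so that each line keeps the whole hamster genome and its own random set of mouse fragments. The lines are numbered up to 100, with 67 absent, and each is a single line with no untreated or empty-fusion control besides A23. Mouse brain was also set against hamster brain and mouse liver against hamster liver, with 2 arrays each. The labels name no strain, sex or age for the tissue donors. Each pair of arrays is labelled as biological replicates, with the dyes exchanged in replicate 2, and replicate and dye orientation therefore go together. Replicate 1 had the hybrid or mouse RNA in Cy3 and replicate 2 had it in Cy5. The values below are log2 ratios, hybrid over A23 or mouse over hamster, where 1 is a doubling and 0 is no difference.

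Deposited ratios carry no signal level. Precision is limited by how many arrays there were, and neither the identity of the tissues nor the presence of a receptor's RNA could be checked from markers. A ratio between species also holds any difference in how well hamster RNA binds a mouse probe, and this cannot be told apart from a difference in expression. Exact zeros made up 14.8% of the receptors' hybrid values, against 10.2% of the values of all features. The share per receptor ran from 0 to 74.2%, the highest in Olfr676, with a median of 6.82%, and 36 receptors exceeded 20%. The lowest deposited value acted as a floor at 6.64 on the log2 scale, which bounds high hybrid ratios in replicate 1 and low ones in replicate 2, and 61 of the receptors' 23166 hybrid values lay on it. In 8 lines (13, 14, 23, 29, 37, 42, 45 and 59) an array had an SD above 1.5. Replicate 1 of line 23 stood apart: across genes its r was below -0.3 with 35 of the 98 other arrays of its orientation and -0.34 with its own replicate 2. The labels state its dyes, so its direction was kept, and results are also given without it where they differ.

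Across the panel, Olfr608 was far above A23, and the next receptor of the cluster stood at 0.38. Of the 112 receptors, 10 were higher than A23 (8.93%, against a background of 19.5% of all genes tested) and 3 were lower (2.68%, against a background of 11.4%). These calls came from limma on the means of the 99 lines, at a Benjamini-Hochberg adjusted p under 0.05 over all genes and a mean of at least 0.2 in size. Of the 99 uncalled receptors, 98 had means between -0.2 and 0.2. Without the size limit 21 were higher (background 30.5%) and 26 lower (background 27%). The receptors' median mean was 0.01, as for all genes, and the median size of a mean was 0.0953, against 0.126 for all genes. Of the other olfactory receptors, 53 of 613 were higher (8.65%) and 17 lower (2.77%). Among those higher, Olfr1451 averaged 1.63 and Olfr1507 1.37. Standard errors of the receptors ran from 0.02 to 0.12.

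Olfr608 had line means from -0.57 in line 41 to 4.41 in line 87, with a median of 2.07. Its replicate 1 values ran from -0.78 to 5.65 with a median of 2.80, and its replicate 2 values from -1.63 to 5.26 with a median of 1.15. The line mean was above 0 in 97 of 99 lines and below it in lines 41 and 43. Both arrays were above 0 in 76 lines and both were below 0 in 1 line. The mean over lines was 2.01 ± 0.10 (SE, n = 99), a ratio of 4.03 to A23 (limma, adjusted p = 1.43e-34). Replicate 1 averaged 2.78 and replicate 2 averaged 1.24, a difference of -1.54 ± 0.18 (limma, adjusted p = 1.08e-12), and it was called higher in each orientation alone. Of its values, 4.04% were exact zeros. Without the 8 lines of wide spread its mean was 1.99. Lines 4, 18, 23 and 100 also had low values on both arrays or a low line mean.

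**Figure D1:**
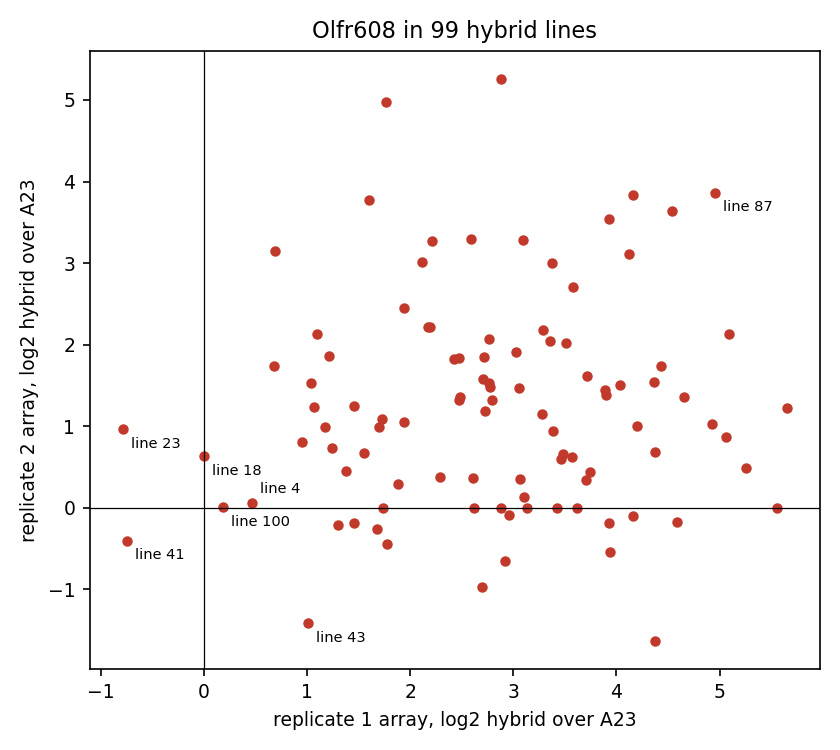
Olfr608 in each of the 99 hybrid lines, as the log2 ratio of hybrid over A23 on the replicate 1 array (horizontal) and on the replicate 2 array (vertical), with 1 point per line. Both arrays were above 0 in 76 lines, line 41 was below 0 on both, and most points lie further to the right than up.

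The other 9 receptors called higher had means between 0.22 and 0.38. Olfr701 averaged 0.38 ± 0.09 (SE, n = 99), Olfr683 0.36 ± 0.06, Olfr615 0.33 ± 0.05 and Olfr654 0.31 ± 0.06, each with a limma adjusted p of 0.000204 or lower. Neighbours in this order differ by less than their standard errors. Olfr683 had line means from -1.11 to 2.79 with a median of 0.26 and was above 0 in 72 lines, and Olfr654 ran from -0.90 to 3.46 with a median of 0.24 and was above 0 in 75 lines. Their ranges span 0, so lines on both sides of A23 occurred for each. Olfr714 (0.26), Olfr716 (0.26), Olfr653 (0.25), Olfr584 (0.23) and Olfr551 (0.22) were the remaining receptors called higher, and Olfr679 (0.19) missed the size limit. Without the 8 lines of wide spread, Olfr653 averaged 0.19 and Olfr716 0.18, below the size limit, and the other 11 of the 13 calls were kept.

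Olfr616 averaged 0.22 ± 0.12 (SE, n = 99) and did not pass the test (limma, adjusted p = 0.111). Of its values, 53.0% were exact zeros, and the median of its line means was 0. Line means ran from -3.32 in line 75 to 3.32 in line 37, both arrays were above 0 in 3 lines and both below 0 in 4. This receptor lay at 1.11 in replicate 1 and at -0.66 in replicate 2, so its mean had opposite signs in the orientations.

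The receptors called lower were Olfr659, Olfr628 and Olfr651. Olfr659 had line means from -1.07 to 0.33 with a median of -0.31, was below 0 in 81 lines and averaged -0.33 ± 0.03 (limma, adjusted p = 2.72e-15). Olfr651 had line means from -1.14 to 0.57 with a median of -0.22, was below 0 in 83 lines and averaged -0.24 ± 0.03 (limma, adjusted p = 2.92e-12). Both receptors thus lay slightly below A23 in most lines, and exact zeros made up 0.51% and 0% of their values. Olfr628 averaged -0.25 ± 0.07, with 31.8% exact zeros, and was below 0 in 58 lines. The next lowest receptors, Olfr571 (-0.19), Olfr617 (-0.18), Olfr570 (-0.17), Olfr609 (-0.16), Olfr711 (-0.15), Olfr583 (-0.15), Olfr675 (-0.14), Olfr575 (-0.14) and Olfr715 (-0.13), missed the size limit. Without line 23, the 13 receptors kept their calls and Olfr571 joined them at -0.21.

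**Figure D2:**
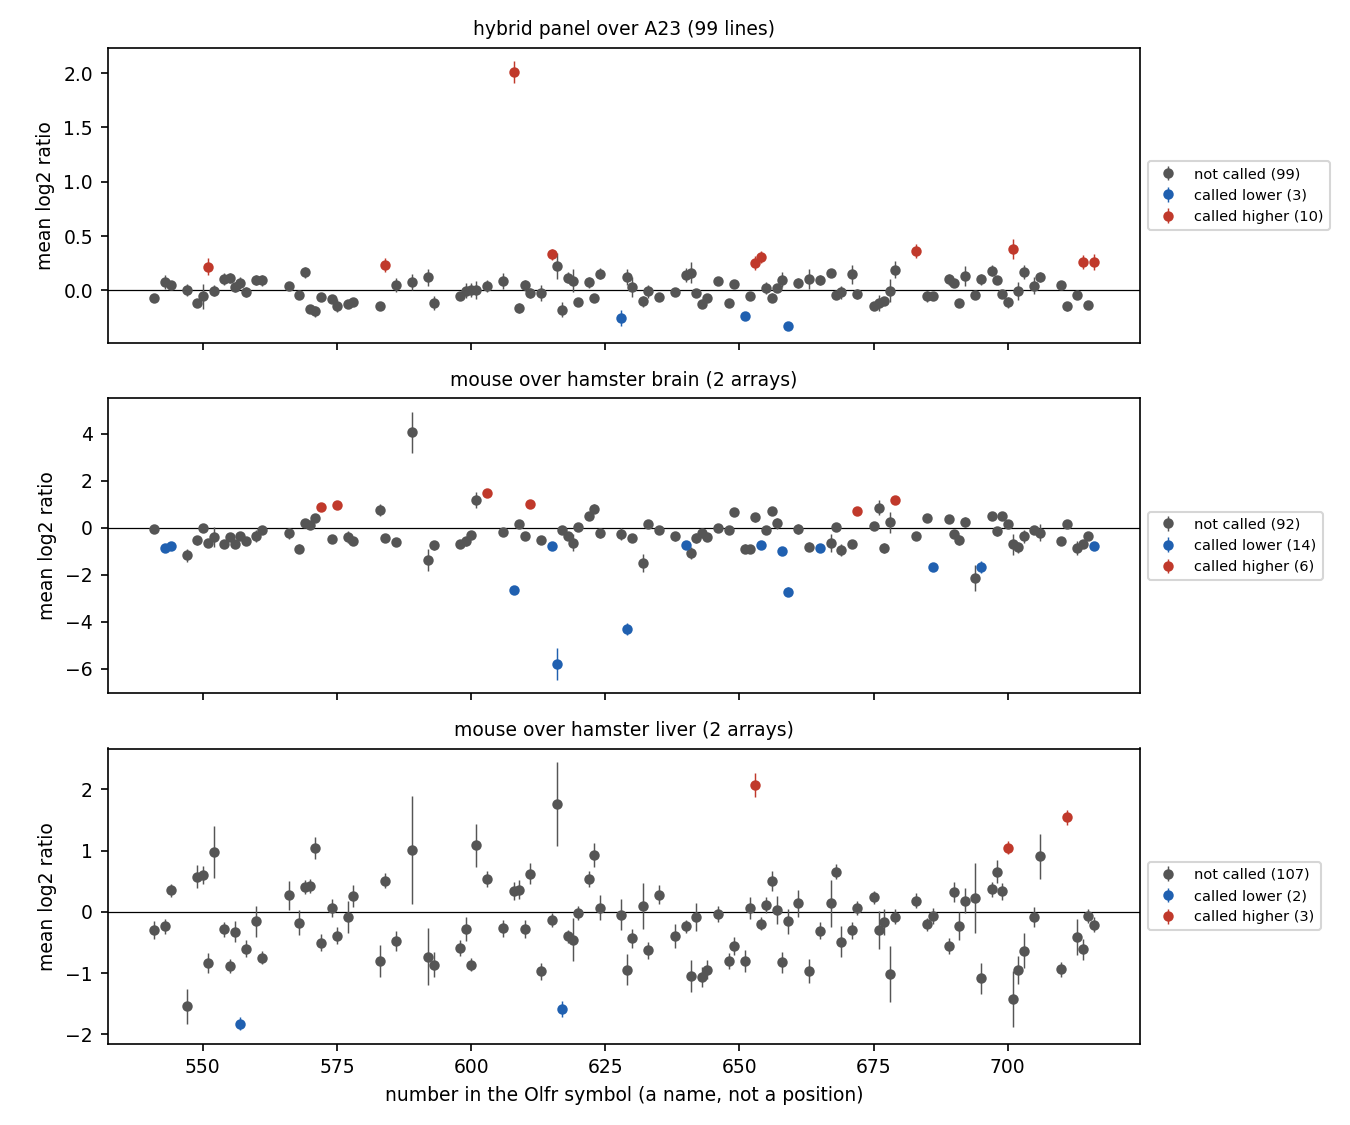
Mean log2 ratio of each of the 112 receptors against the number in its name, in the hybrid panel (99 lines), brain and liver (2 arrays each), with bars for the standard error. In brain and liver the standard error uses a limma spread shared by the 4 tissue arrays. Olfr608 is alone near 2 in the panel, while in brain Olfr616, Olfr629, Olfr659, Olfr608 and the uncalled Olfr694 lie below -2. The vertical scales differ between the panels.

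The mean of most receptors differed in sign between the dye orientations, which cannot be told apart from the replicates. In 82 of 112 receptors the mean had opposite signs in the orientations (73.2%, against a background of 61.3% of all genes), and in 64 it was positive in replicate 1 and negative in replicate 2 (57.1%, against a background of 34.6%). The median of the receptors was 0.20 in replicate 1 and -0.10 in replicate 2. The corresponding medians were 0.18 and -0.10 for the other olfactory receptors and 0.05 and -0.02 for all genes. Tested alone, replicate 1 called 55 receptors higher (background 36.9%) and 13 lower (background 24.8%), while replicate 2 called 6 higher (background 22.3%) and 46 lower (background 26%). The split of higher against lower calls was thus reversed between the orientations.

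The difference between orientations passed the limma test with a size of at least 0.2 in 73 receptors. It was positive in 14 (12.5%, against a background of 29.3%) and negative in 59 (52.7%, against a background of 39%). Olfr550 averaged 0.86 in replicate 1 and -0.97 in replicate 2, and Olfr641 averaged 1.01 and -0.69. At the other end, Olfr571 averaged -0.56 in replicate 1 and 0.17 in replicate 2, and Olfr609 -0.44 and 0.12. Differences in both directions therefore occurred, and 40 receptors were called in opposite directions by the orientations (35.7%, against a background of 25.4%). All 40 were higher in replicate 1 and lower in replicate 2 (background 16.4%).

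Receptors with more exact zeros had more negative differences between orientations, with r = -0.66 across the 112 receptors. Across receptors, the means in the orientations had r = -0.20, and without Olfr608 r = -0.64. The corresponding r was -0.37 for the other olfactory receptors and -0.23 for all genes. These are descriptions across genes that share the same arrays, and genes are not independent replicates. With exact zeros taken as missing, 64 receptors could be tested for orientation, and the split moved from 14 positive and 59 negative differences to 14 (background 37.1%) and 20 (background 25.2%). Without line 23 it was 17 (background 30.4%) and 65 (background 39.6%).

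Only 5 receptors were called the same way in both orientations alone. Olfr608, Olfr654, Olfr683 and Olfr714 were higher in each (3.57%, against a background of 6.08%), and Olfr659 was lower in each (0.893%, against a background of 3.26%). Olfr683 averaged 0.24 in replicate 1 and 0.48 in replicate 2, Olfr654 0.28 and 0.34, Olfr714 0.29 and 0.23, and Olfr659 -0.36 and -0.30. For these 4 the orientations lay within 0.25 of each other, unlike Olfr608. Among the 13 called receptors, 5 had means of opposite sign: Olfr701 (0.76 and -0.000847), Olfr716 (0.63 and -0.11), Olfr653 (0.88 and -0.37), Olfr551 (0.68 and -0.24) and Olfr628 (0.35 and -0.86). For Olfr653, Olfr551 and Olfr628 both orientations passed the test, in opposite directions. Olfr615 averaged 0.18 in replicate 1 and 0.49 in replicate 2, Olfr584 0.31 and 0.15, and Olfr651 -0.08 and -0.39, each with the same sign in both but a call in only 1 orientation.

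**Figure D3:**
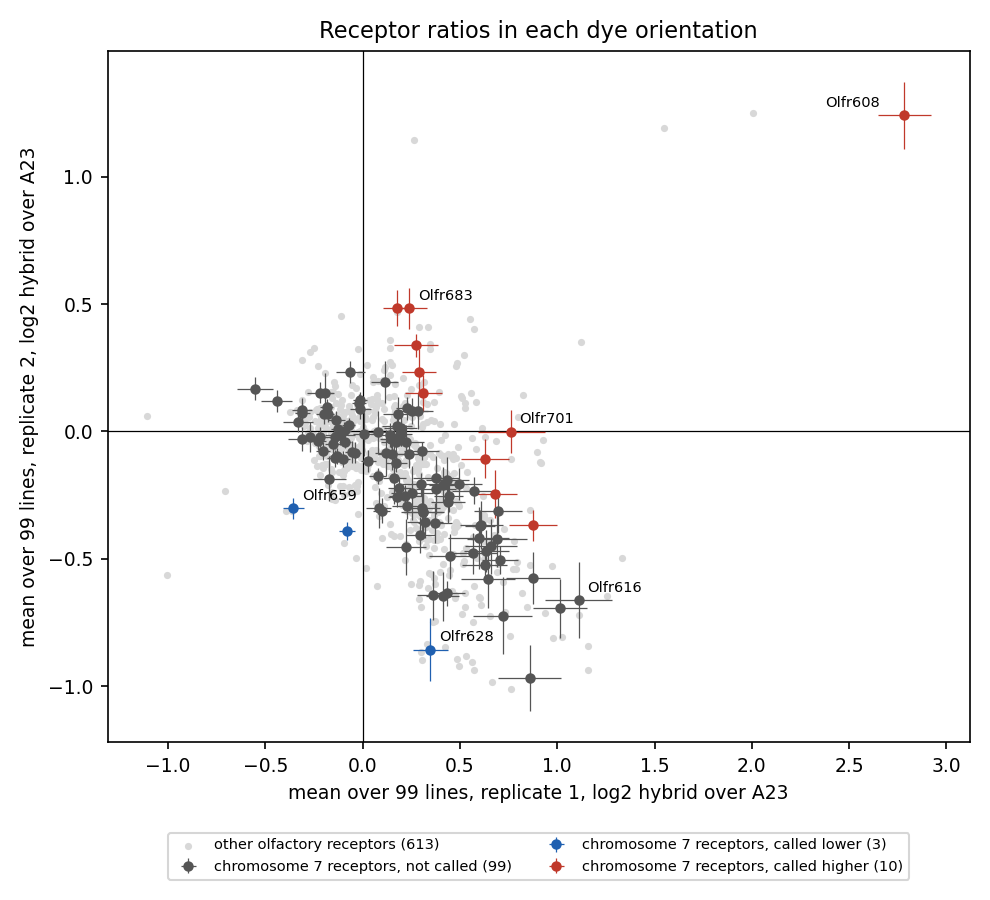
Mean log2 ratio over 99 lines in replicate 1 (horizontal) and replicate 2 (vertical) for the 112 receptors, coloured by their call in the panel mean with bars for the standard error, and for the 613 other olfactory receptors in pale grey. Most of the 112 receptors lie in the lower right part, positive in replicate 1 and negative in replicate 2. Among the 112, Olfr608 lies alone at the upper right. Of the other olfactory receptors, Olfr1451 (2.01 and 1.25) and Olfr1507 (1.55 and 1.19) also lie there.

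Each line holds its own set of mouse fragments, so the lines were also compared with each other. None of the 112 receptors differed between lines at an adjusted p under 0.05 (limma F test on 198 arrays with dye orientation as a term; 0%, against a background of 8.88%), and 8 had an unadjusted p under 0.05 (background 18.6%). Among the other olfactory receptors 4 of 613 differed (0.653%). The largest F belonged to Olfr617, with 1.64 and an adjusted p of 0.0673, followed by Olfr550, Olfr705, Olfr616, Olfr592, Olfr601, Olfr543 and Olfr702. Line means of Olfr617 ran from -4.26 in line 29 to 1.75 in line 72 with a median of -0.20, and those of Olfr550 from -3.77 in line 41 to 3.02 in line 37 with a median of 0. For both, a few lines lay far from a median near 0. Olfr608 had an adjusted p of 0.489 in this test, so a difference between lines was not shown for it. Without line 23, Olfr543 (limma F test, adjusted p = 0.0113) and Olfr617 (adjusted p = 0.0318) passed. Without the 8 lines of wide spread Olfr543 passed (limma F test, adjusted p = 0.0240). Over all 16504 genes, 1718 passed without line 23 and 1803 without the lines of wide spread.

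The intraclass correlation between arrays of one line, which is 1 where lines repeat perfectly and 0 or below where they do not repeat, ran from -0.37 to 0.24 over the receptors, with a median of -0.00. Genes that are not receptors but lie in the same region gave a comparison. The list was drawn up from general knowledge, and 40 of its 50 genes were on the array. Of these, 4 differed between lines (10%, against a background of 8.88%), a share near that of all genes. They were Tpp1, a lysosomal peptidase, with an intraclass correlation of 0.588, Ppfibp2 (0.347), Rrm1, the large subunit of ribonucleotide reductase (0.335), and Gvin1 (0.270). In the panel mean 13 of the 40 were higher (32.5%, against a background of 19.5%) and 2 lower (5%, against a background of 11.4%). Tpp1 averaged 0.78, with 1.56 in replicate 1 and -0.01 in replicate 2. Rrm1 averaged 0.88, with 1.499 in replicate 1 and 0.25 in replicate 2. Tested alone, replicate 1 called both higher and replicate 2 called neither. Hbb-b2, a beta-globin gene, averaged -0.05 and was not called in the panel mean. The difference between receptors and these genes was not tested.

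Pairs of receptors had a median r of 0.113 across the 99 line means. It was 0.116 for receptors next to each other in number, 0.119 for receptors more than 50 numbers apart, and 0.110 between these receptors and the other olfactory receptors. The medians for near and for distant numbers were thus almost equal. The median r with Tpp1 was 0.0368 and with Rrm1 0.120, whereas Tpp1 and Rrm1 had r = 0.444 with each other. These r values are descriptions over lines that share the reference RNA, A23.

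Single lines with a large ratio on both arrays were rare. Leaving out Olfr608, both arrays were above 1 in 49 of 10989 pairs of receptor and line (0.446%, against a background of 1.71%) and both were below -1 in 31 (0.282%, against a background of 0.868%). The arrays lay past 1 in opposite directions in 193 pairs (1.76%, against 2.36% for all genes). In Olfr608 both arrays were above 1 in 52 lines. The corresponding shares of the other olfactory receptors were 0.501%, 0.250% and 1.57%. The pairs above 1 fell in 19 lines and those below -1 in 13.

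Line 29 held 16 of the 49 pairs above 1 and line 41 held 9 of the 31 below -1. In line 29 that was 14.4% of the 111 receptors (background 5.97%), and 8.65% of the other olfactory receptors were above 1 there as well. Olfr601 stood at 5.06 and 1.69 on its replicate 1 and replicate 2 arrays, Olfr679 at 3.50 and 3.44, and Olfr551 at 2.33 and 2.44. Olfr617 went the other way in this line and had its lowest line mean there. In line 41, 8.11% of the receptors were below -1 (background 3.74%), with 8.65% of the other olfactory receptors. Olfr550 stood there at -3.21 and -4.34, Olfr641 at -2.72 and -2.26, and Olfr551 at -1.21 and -3.01. Line 24 followed with 6 receptors below -1 (5.41%, background 2.39%).

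**Figure D4:**
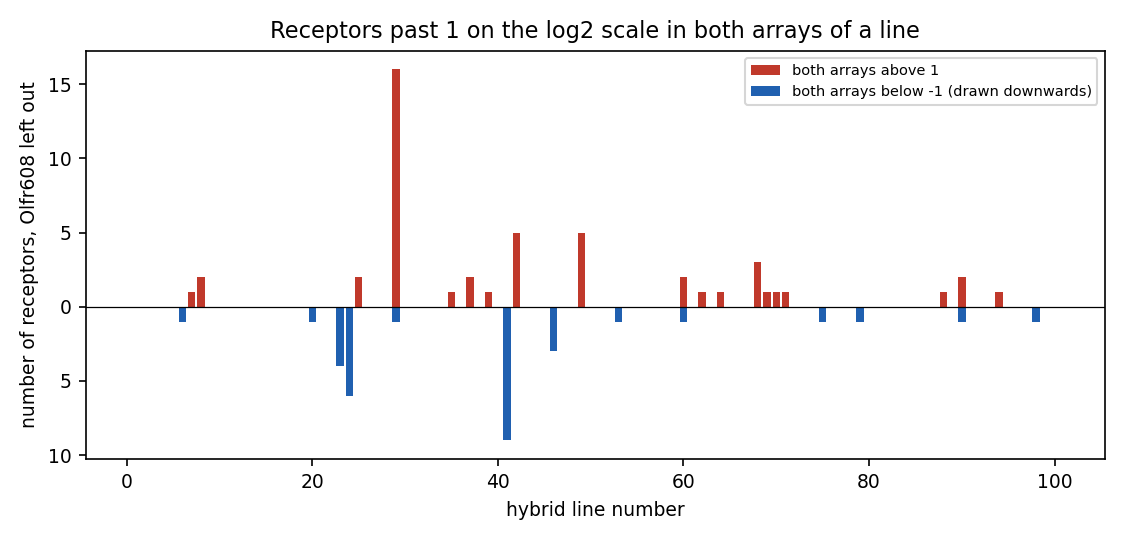
Number of receptors, Olfr608 left out, whose replicate 1 and replicate 2 ratios in a hybrid line were both above 1 (bars upwards) or both below -1 (bars downwards) on the log2 scale, by line number. Line 29 reaches 16 upwards and line 41 reaches 9 downwards, and most lines have none.

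The median of the receptors in a line stayed within 0.2 of 0 in 86 of 99 lines. It was highest in line 42, at 0.87, and lowest in line 23, at -0.56. In line 42 the median was 1.71 in replicate 1 and 0.08 in replicate 2, and in line 23 it was -1.36 and 0, so in each case the receptors moved as a group on 1 array and not on the other. Across the receptors, the arrays of a line had a median r of -0.00, from -0.57 to 0.45, and r was positive in 49 lines.

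In brain, the receptors were more often lower in mouse than in hamster. Of the 112, 6 were higher (5.36%, against a background of 10.1%) and 14 lower (12.5%, against a background of 5.91%; limma on the 4 tissue arrays, adjusted p under 0.05). Their median was -0.36, against 0.06 for all genes and -0.22 for the other olfactory receptors, of which 3.1% were higher and 7.18% lower. A negative mean was found in 79 of the 112. For each receptor, the standard errors in brain and liver come from 1 limma spread shared by all 4 tissue arrays. They do not measure the distance between a tissue's own 2 arrays. Between the brain arrays r was 0.855 over the 112, against 0.793 over all genes. Each receptor feature had been centred over the 4 tissue arrays, which acts on the agreement of a tissue's arrays. This r is therefore no measure of how well the arrays repeat.

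Olfr616 was the lowest, at -4.94 and -6.64 in replicates 1 and 2. The second value lay on the floor, so its brain mean is -5.79 or lower (limma, adjusted p = 0.0318). Olfr629 stood at -4.61 and -3.99, a mean of -4.30 ± 0.25 (SE from the shared spread, 2 brain arrays, limma adjusted p = 0.0190). The brain means of Olfr616 and Olfr629 were thus far below 0, while the centring acts on how near their arrays lie to each other. Olfr659 stood at -2.42 and -3.03, with a mean of -2.72 ± 0.20 (limma, adjusted p = 0.0212). Olfr608 stood at -2.45 and -2.85, with a mean of -2.65 ± 0.15 (limma, adjusted p = 0.0190). Olfr659 was therefore below its reference both in brain and in the panel, whereas Olfr608 was below hamster brain and above A23. Olfr695 (-1.68) and Olfr686 (-1.66) were also lower, and Olfr694 (-2.14) and Olfr632 (-1.49) did not pass the test, with arrays at -1.12 and -3.16 and at -0.84 and -2.14.

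At the upper end, Olfr589 had the highest brain mean, 4.07 ± 0.88, from arrays at 5.62 and 2.52, and did not pass the test (limma, adjusted p = 0.0639). Olfr603 stood at 1.59 and 1.41, with an SE of 0.13, and was the highest receptor that passed (limma, adjusted p = 0.0242). Its arrays were close together, while those of Olfr589 were more than 3 apart, and the centring acts on both distances. Olfr679 (1.17), Olfr611 (1.00), Olfr575 (0.96), Olfr572 (0.90) and Olfr672 (0.73) were the others called higher, and Olfr601 (1.19) and Olfr676 (0.86) were not called. Of the receptors with known ligands, picked after their values were seen, Olfr544 averaged -0.80 in brain and was called lower (limma, adjusted p = 0.0379, and 0.0528 with the replicate number as a block), and Olfr558 averaged -0.57 and was not (limma, adjusted p = 0.0721).

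With the replicate number as a block, 22 receptors were called in brain, 6 higher (background 21.1%) and 16 lower (background 10.5%). Of the 20 calls 14 were kept, and Olfr589 was among 8 that were gained (limma, adjusted p = 0.0082). Over all 16504 genes, 2349 brain calls were kept with the block, 286 were lost and 2867 were gained. The 6 calls lost were those of Olfr544, Olfr615, Olfr640, Olfr654, Olfr672 and Olfr716, with adjusted p-values from 0.0528 to 0.0681. With either brain array left out, no receptor was called in brain (limma), and none of the 16504 genes was (background 0%). Counts at an unadjusted p under 0.05 were then 49 of the 112 without replicate 1 (background 34.5%) and 36 without replicate 2 (background 31.8%).

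In liver fewer receptors passed, 3 higher (2.68%, against a background of 2.35%) and 2 lower (1.79%, against a background of 2.26%). The shares were near those of all genes, and the median was -0.17, against 0.02 for all genes. Olfr653 stood at 1.79 and 2.36 in replicates 1 and 2, a mean of 2.07 ± 0.19 (SE from the spread shared by the tissues, 2 liver arrays, limma adjusted p = 0.0430). Olfr711 averaged 1.54 and Olfr700 1.05, and both were called higher. Olfr557 stood at -1.86 and -1.79, a mean of -1.82 ± 0.11 (limma, adjusted p = 0.0318), and Olfr617 averaged -1.58. For each of these 5 receptors the arrays had the same sign and lay within 0.6 of each other. The centring of each feature over the tissue arrays acts on both of these traits.

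Olfr616 had arrays at 2.65 and 0.88 in liver, a mean of 1.76 ± 0.68, and did not pass (limma, adjusted p = 0.145). The other receptors at the ends of the liver range, Olfr601 (1.09), Olfr571 (1.04), Olfr589 (1.01) and Olfr552 (0.98) above and Olfr547 (-1.54), Olfr701 (-1.42), Olfr695 (-1.09), Olfr643 (-1.06), Olfr641 (-1.05) and Olfr678 (-1.01) below, did not pass either. Olfr544, known from liver, averaged 0.35 there (limma, adjusted p = 0.109). With the replicate number as a block 5 receptors were higher (background 16.3%) and 10 lower (background 9.22%), and Olfr616 was then among the higher ones (adjusted p = 0.0124). With arrays scaled to the same spread the liver split was 3 higher (background 3.1%) and 6 lower (background 3.76%) in place of 3 and 2. With either liver array left out, no receptor and no other gene was called there (limma). Counts at an unadjusted p under 0.05 were then 35 of the 112 without replicate 1 (background 29.5%) and 25 without replicate 2 (background 30%).

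**Figure D5:**
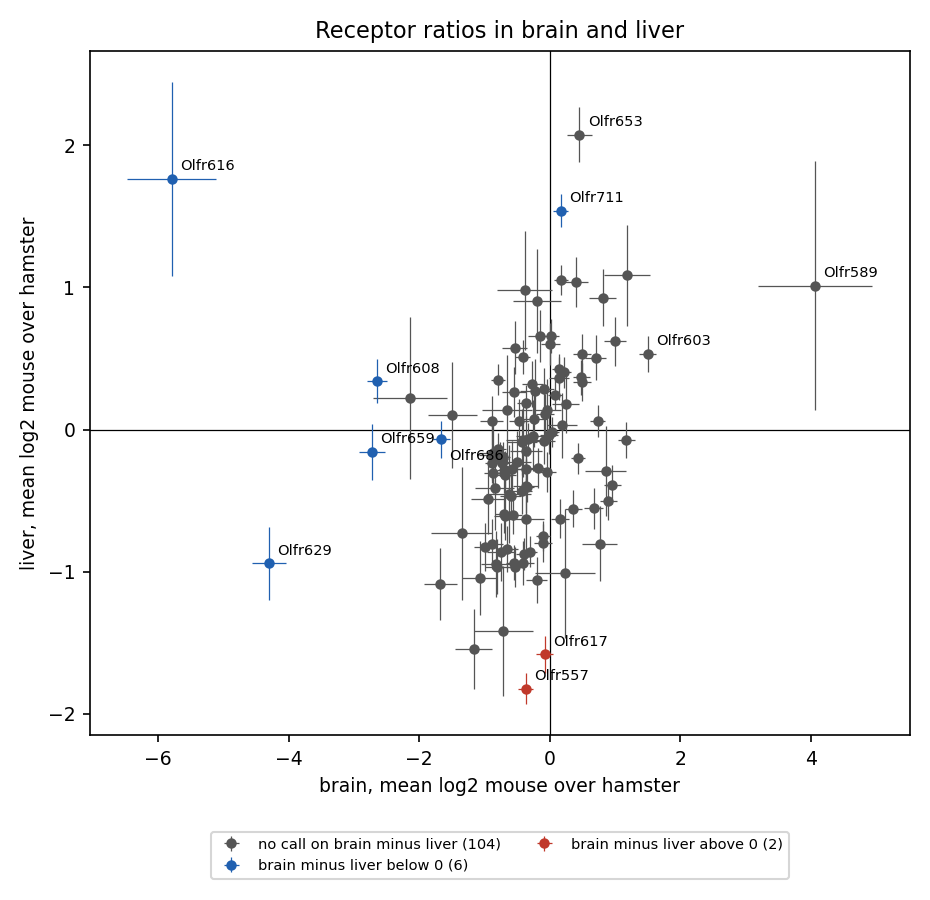
Mean log2 ratio of mouse over hamster in brain (horizontal) and in liver (vertical) for the 112 receptors, with bars for the standard error (2 arrays per tissue, with a limma spread shared by the tissues) and colours for the call on the difference between the tissues. Olfr616 lies at the upper left, Olfr629, Olfr608 and Olfr659 lie at the left, and Olfr557 and Olfr617 lie at the bottom.

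The species ratio differed between the tissues in 8 receptors, 6 with a lower ratio in brain (5.36%, against a background of 2.54%) and 2 with a higher one (1.79%, against a background of 3.53%; limma contrast of the tissues). The lowest differences were those of Olfr616, Olfr629, Olfr608 and Olfr659. Olfr608 stood at 0.38 and 0.30 in liver, far from its values in brain, and Olfr659 at -0.15 and -0.16. For both receptors the liver arrays were the middle 2 of the 4 deposited ratios. The centring over the 4 arrays ties such a pair together, so their closeness does not show that the liver values repeat. It also enters the spread that the test uses. Olfr617 and Olfr557 had liver means of -1.58 and -1.82, below their brain means. With the replicate number as a block the 4 lowest stayed called (adjusted p of 0.0163, 0.0280, 0.0211 and 0.0294 for Olfr616, Olfr629, Olfr608 and Olfr659), with 4 lower (background 3.97%) and 0 higher (background 4.84%). With arrays scaled to the same spread the split was 0 higher (background 1.79%) and 2 lower (background 1.28%) in place of 2 and 6. No receptor and no other gene was called in this contrast with any 1 of the 4 arrays left out (limma), and counts at an unadjusted p under 0.05 were then 40 and 37 of the 112 without brain replicates 1 and 2 (backgrounds 30.4% and 28.2%) and 29 and 30 without liver replicates 1 and 2 (backgrounds 28.1% and 26.3%).

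No receptor was called both in brain and in liver (background 0.0242% of all genes). The panel and brain shared 5 called receptors (background 4.99%): Olfr659 was lower in both, and Olfr608, Olfr615, Olfr654 and Olfr716 were higher than A23 and lower than hamster brain. Of these, Olfr615, Olfr654 and Olfr716 lost their brain call with the replicate number as a block (adjusted p of 0.0556, 0.0681 and 0.0607). The panel and liver shared 1 (background 1.62%), Olfr653, which was higher in both, although its panel mean was -0.37 in replicate 2. The remaining 80 of the 112 receptors were called in none of the 3 (background 55.1%).

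For the 4 receptors with several probes, which were named for that reason, the probes did not always give like values. The 2 probes of Olfr668 averaged 2.07 and -0.76 in liver, and its gene value, their mean, hides this. For Olfr689 the 3 probes averaged 2.40, -0.69 and -0.63 in brain and 0.08, 0.31 and -0.09 in the panel, where the middle one alone was called higher. The probes of Olfr586 averaged 0.03 and -1.23 in brain, and those of Olfr593 -0.93 and -0.57.

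Other chemoreceptors and the olfactory signalling genes gave the setting. Of 126 vomeronasal and taste receptors, 15 were higher (11.9%, background 19.5%) and 7 lower (5.56%, background 11.4%) in the panel. Their medians were 0.21 in replicate 1 and -0.12 in replicate 2, close to those of the receptors above. Of the 27 genes of olfactory signalling and receptor transport, 23 were on the array, and 2 were higher (8.7%) and 4 lower (17.4%) in the panel. Stoml3, a stomatin-like protein of olfactory cilia, averaged 0.77 and Adcy3 0.20. Omp, the olfactory marker protein, averaged -0.37 and Arrb2, a beta-arrestin, -0.41, with Ldb1 at -0.27 and Ric8b at -0.22. Replicates 1 and 2 gave 0.01 and -0.75 for Omp, -0.09 and -0.72 for Arrb2, -0.43 and -0.12 for Ldb1, and -0.01 and -0.43 for Ric8b. None of the 23 was called the same way in each orientation alone. Stoml3 had opposite signs in the orientations, at 2.00 in replicate 1 and -0.47 in replicate 2. In brain 0 of the 23 were called (limma; 9 had an unadjusted p under 0.05), and in liver Pde1c, a phosphodiesterase, was higher at 4.59 and Ano2, a calcium-activated chloride channel, lower at -1.43.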

How the data were processed

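Total RNA was labelled directly and hybridised to 2-colour arrays, and the authors deposited log10 ratios (Cy5 over Cy3), per the labels. The steps from scan to ratio are not stated there. The authors' table had 20868 features and no missing value. In 100% of the receptors' features the 4 tissue arrays had a median linear ratio of 1 (tolerance 1e-06), so each feature had been centred over these arrays. The offset cancels in a tissue's mean but not in the spread or the agreement between its arrays.

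Ratios were turned by the dyes named in the labels, converted to log2 and averaged per gene. Names came from the platform's probe table. limma 3.58.1 (R 4.3.3) was fitted to 16504 genes, with adjustment over all of them, and checked on simulated data. A23 was never set against itself, and p-values cover only the spread of these arrays, which can be technical. The tissue fit left 2 residual degrees of freedom, and 1 with the block.

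Replicate numbers mark the dye orientation, per the labels, so they pair the arrays. Across genes, deviations of brain and liver replicate 1 had r = 0.44.

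Members and lists were chosen with earlier results of these data known. Named were Olfr608, Olfr616, the 12 highest and 12 lowest panel means, receptors called in both orientations, the 8 largest F, and the 8 highest and lowest in each tissue. Receptors with several probes or known ligands were added after values were seen. Class I and II receptors were not split here.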

Additional observations from a re-analysis of the deposited data

Results flagged for a closer look

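The ratio of mouse over hamster differed between brain and liver in 8 receptors by the test of the difference itself (limma, 4 arrays). Brain minus liver was -7.56 or lower for Olfr616, whose second brain array lay on the floor, -3.36 for Olfr629, -2.99 for Olfr608 and -2.57 for Olfr659. It was -1.59 for Olfr686, -1.37 for Olfr711, 1.45 for Olfr557 and 1.51 for Olfr617. Adjusted p-values (limma) lay between 0.0351 and 0.0497, and the centring over the 4 arrays enters the spread behind them. The last 4 named receptors were not called with the replicate number as a block. Over all genes, 765 calls of this contrast were kept with the block and 237 were lost.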

How the results depend on the processing

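Of the 13 receptors called in the panel mean, 8 kept their call under each alternative that kept both replicates and in which they were tested (6 of the 13 were tested with exact zeros as missing), as did 11 of 20 in brain, 5 of 5 in liver and 2 of 8 in brain minus liver. With exact zeros as missing, 79 receptors could be tested in the panel and 7 were called, 34 differed between orientations in place of 73, and 1 differed between lines. Without the size limit 47 were called in the panel, 21 higher (background 30.5%) and 26 lower (background 27%). Without line 23, chosen after seeing the data, 2 differed between lines, and 1 did without the lines of wide spread. Leaving out replicate 1 or replicate 2 in all lines gave 52 and 68 panel calls. Replicate 2 alone called 6 higher (background 22.3%) and 46 lower (background 26%). Replicate 1 alone called 55 higher (background 36.9%) and 13 lower (background 24.8%). Without replicate 1 and without replicate 2, the means were -0.24 and 0.68 for Olfr551, -0.37 and 0.88 for Olfr653, -0.00085 and 0.76 for Olfr701, -0.11 and 0.63 for Olfr716 and -0.86 and 0.35 for Olfr628, each reversed in 1 of them. With the replicate block the panel kept 13 calls, liver had 15 in place of 5 and brain minus liver 4 in place of 8. With scaled arrays liver had 9 and brain minus liver 2. Leaving out any single tissue array gave 0 calls in brain, in liver and in brain minus liver, where 1 residual degree of freedom remained. The cause of the other changes was not tested. The deposited ratios hold no signal over background, so faint spots could not be set apart.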
